A study of Danio rerio with 8 samples.

Results

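Notch ligands, receptors and hey target genes were followed in tcf21:nEGFP-positive epicardial cells sorted from the ventricles of juvenile zebrafish. The group holds the ligand genes jag1a, jag1b, jag2b and dll4, the receptor genes notch1a, notch1b and notch2, and the target genes hey1, hey2 and heyl. These 10 genes were chosen by symbol, with earlier results of these data known. All 10 were matched among the 37685 gene symbols of the count files. Bulk RNA-seq was available from 4 libraries of cxcr4a mutants (allele cxcr4aum20, which the labels describe with coronary loss) and 4 libraries of wild type. All 8 libraries came from fish that carry the tcf21:nEGFP reporter, aged 70 days post-fertilization and of similar body size. The comparison asks how the epicardial transcriptome of fish labelled with coronary loss differs from that of wild type, and the vessel loss and other effects of the mutation cannot be told apart in it. The labels do not say whether each library came from separate fish or from pools, and the p-values below cover only library-to-library spread, some of which may be technical.

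Notch signalling works between neighbouring cells. Jagged and Delta ligands on one cell bind Notch receptors on another, the receptor is cleaved in steps by ADAM proteases and gamma-secretase, and its intracellular part joins Rbpj and Mastermind proteins in the nucleus to switch on hey and her genes, which encode transcriptional repressors. In the heart the pathway is known for its roles in arterial endothelium, endocardium, valves and, in mouse, the differentiation of smooth muscle from epicardium-derived cells.

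Depth ranged over 18891079 to 25513003 counts for the mutants and over 19584695 to 28471786 counts for wild type. The mutated gene cxcr4a was counted in mutants 1 to 4 with 86, 229, 171 and 447 reads, against 219, 12, 118 and 27 in wild types 1 to 4, which does not check the labels, since a mutant transcript can still be counted. Of 6 epicardial markers, tcf21, tbx18, wt1a, wt1b and hapln1a were counted in all 8 libraries, and aldh1a2 was near 0, between 0.0953 and 0.260 CPM in the mutants and between 0.0898 and 0.263 CPM in the wild types. CPM are counts scaled to library size with TMM factors. aldh1a2 has 2 rows in the count files, as has tcf21, and whether reads were lost between rows of a symbol was not tested. cxcr4a mutant 2, wild type 3 and wild type 4 stood apart in acta2, myh11a and myocd, though not in every smooth muscle or mural gene (tagln was at 356.4 CPM in cxcr4a mutant 1 and 289.6 CPM in wild type 3): acta2, which encodes smooth muscle actin, was at 6182 CPM in cxcr4a mutant 2, 2188 CPM in wild type 3 and 3300 CPM in wild type 4, and at 128.7 CPM or less in the other 5 libraries.

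Among the targets, hey1 was higher in every cxcr4a mutant library than in every wild-type library. It encodes a repressor of the hairy and enhancer-of-split related family. hey1 stood at 27.6, 21.9, 36.5 and 26.1 CPM in mutants 1 to 4, against 17.9, 9.32, 14.3 and 14.4 CPM in wild types 1 to 4. The lowest mutant value was thus above the highest wild-type value, and the means were 28.0 ± 6.12 CPM for mutants against 14.0 ± 3.53 CPM for wild types (n = 4 each, SD). Its log2 fold change was 1.00 ± 0.28 (SE) with a 95% interval of 0.37 to 1.63. It did not pass over the 16631 symbols tested with edgeR (unadjusted p = 0.00548, adjusted p = 0.317), where its p ranked 288. DESeq2 called it at a nearly identical change (log2 fold change 1.00, adjusted p = 0.0479), in a table where 2.2% of symbols were called. Cardiomyocyte markers had values in the same direction as hey1: all 10 tested had a log2 fold change above 0 (median 1.147), against 50.7% of all symbols. Of these markers 4 were at an unadjusted edgeR p under 0.05, where 5.09% of all symbols were in that direction, and 0 were called by edgeR. Of the 2 that edgeR did not test, DESeq2, which called 2.2% of symbols, called nppb higher (adjusted p = 0.00795). nppb was at 32.9, 0.29, 0.824 and 4.92 CPM in mutants 1 to 4 and at 0.421 CPM or less in wild type. The 12 matched markers, none at 0 in all libraries, summed to 511.2, 943.8, 2015 and 1243 CPM in mutants 1 to 4, against 632.0, 502.1, 460.9 and 549.5 CPM in wild types 1 to 4. hey1 was highest in cxcr4a mutant 3, as was that sum, but cxcr4a mutant 1 had 27.6 CPM of hey1 at a sum within the wild-type range. In cxcr4a mutant 2 the listed marker tpm4a made up 443.3 of the 943.8 CPM, and it was at 227.8 CPM in wild type 4. Of the other markers, myl7 was at 152.9, 209, 792.7 and 534 CPM in mutants 1 to 4. In wild type it ran from 106 to 271.4 CPM, a range that holds mutants 1 and 2. The part of cardiomyocyte content in the hey1 values was not tested. In bulk RNA, more or fewer cells that carry a transcript and more or less of it per cell cannot be told apart.

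No Notch gene of the group passed the edgeR threshold, an adjusted p under 0.05. Of the 10 members, 8 passed the filter on low counts and were tested, and 0 of these 8 were called, in a table where 8 symbols, or 0.0481%, were called. At an unadjusted p under 0.05 there were 2 members, hey1 and hey2, both higher in mutants, where 5.09% of all symbols were at that level in that direction. Groups did not overlap for 2 members, hey1 and jag1a, both with the mutants above, and this held for 3.48% of all symbols. Log2 fold changes of the 8 ranged from -0.21 to 2.54, with 7 above 0 and a median of 0.44. Over all symbols tested 50.7% were above 0 and the median was 0.0097.

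**Figure D1:**
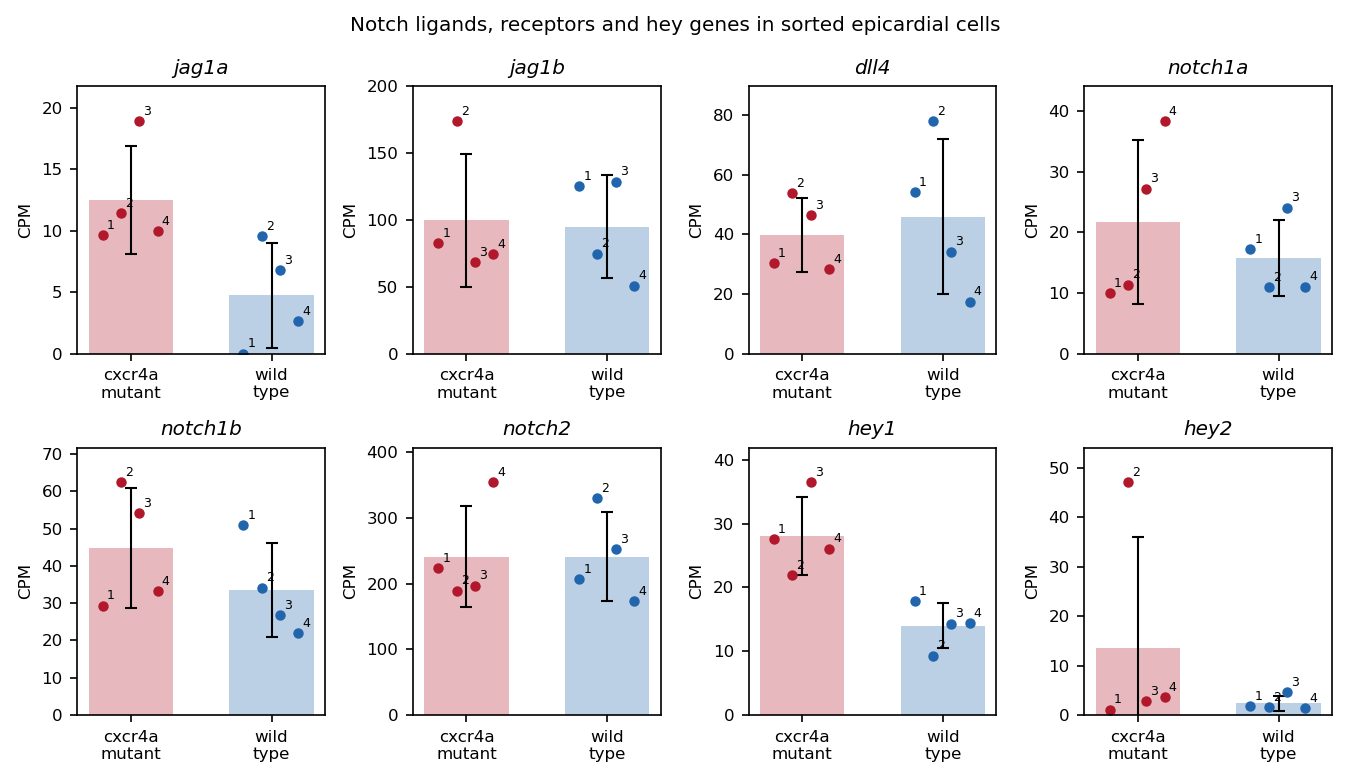
Normalized counts (CPM, linear axis from 0) of the 8 tested members in cxcr4a mutants (red, left) and wild type (blue, right). Points are single libraries marked with their number, bars are means and lines are SDs over 4 libraries, and the lower line of hey2 in mutants runs below 0 and is not drawn there. hey1 separates the groups, at 21.9 CPM or more in mutants and 17.9 CPM or less in wild type, while the mean of hey2 in mutants is carried by library 2 at 47.1 CPM.

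hey2, known in zebrafish as gridlock for its role in forming the aorta, was high in a single library. It had 1.095, 47.1, 2.82 and 3.67 CPM in mutants 1 to 4, against 1.74, 1.66, 4.61 and 1.33 CPM in wild types 1 to 4. cxcr4a mutant 2 was far above all others, and the other 3 mutants lay within or just below the range of wild type. The log2 fold change of 2.54 ± 1.104 (SE, 95% interval 0.07 to 5.01; edgeR adjusted p = 0.562) became 0.11 ± 0.71 without cxcr4a mutant 2 (edgeR adjusted p = 0.991). DESeq2 gave no p-value for hey2, one of 425 symbols with a fold change and no p.

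The hey2-high library was also the highest in the mural cell markers acta2, myh11a, myocd, tagln, cspg4, kcnj8 and abcc9. cspg4 was at 88.03 CPM there and at 18.52 CPM or less elsewhere. kcnj8 was at 78.06 CPM there and at 41.97 CPM or less elsewhere. Of the other mural cell markers, pdgfrb was lowest there, at 345.4 CPM against 350.6 to 886.2 CPM in the other libraries. ndufa4l2a was at 0 there, as in wild type 2. The sum below is largely acta2, at 6182 CPM in cxcr4a mutant 2. The mural cell markers summed to 9857 CPM in cxcr4a mutant 2 and to 795.1 to 1576 CPM in the other 3 mutants, against 527 to 5137 CPM in wild type, and none of the 9 was at 0 in all libraries. All 9 had a log2 fold change above 0, as had 50.7% of all symbols tested. For acta2, myh11a and myocd, cxcr4a mutant 2 was the only mutant above wild types 3 and 4. Their log2 fold changes were 0.21 ± 1.84, 0.32 ± 1.38 and 0.46 ± 1.52 (SE). The groups did not overlap for 1 of the mural cell markers, the channel subunit gene abcc9. Mutants lay above every wild type for 3.48% of all symbols. abcc9 was at 98.4, 158.1, 95.8 and 79.0 CPM in mutants 1 to 4, against 62.0, 24.1, 47.2 and 47.1 CPM in wild types 1 to 4 (log2 fold change 1.26 ± 0.33, SE; edgeR adjusted p = 0.277, DESeq2 adjusted p = 0.0277). DESeq2, which called 2.2% of symbols, called abcc9 and also ndufa4l2a higher (ndufa4l2a adjusted p = 0.0287). ndufa4l2a was at 8.10, 0, 4.47 and 4.43 CPM in mutants 1 to 4 and at 0.428 CPM or less in wild type. myocd, which encodes myocardin, a coactivator of smooth muscle genes, was at 360.1 CPM in cxcr4a mutant 2, 135.5 CPM in wild type 3 and 136.4 CPM in wild type 4, and at 10.6 CPM or less elsewhere. hey2 was second highest in wild type 3, at 4.61 CPM, but at 1.33 CPM in wild type 4, which had as much myocd. The part of smooth muscle content in the hey2 values was not tested. For hey1, cxcr4a mutant 2 was the lowest of the mutants, and without that library the log2 fold change was 1.102 ± 0.30 (edgeR adjusted p = 0.330).

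heyl, the remaining member of the family, had 0 counts in all 8 libraries on both of its rows. A count of 0 allows up to 3 counts, or 0.0334 CPM over the mutant group and 0.0311 CPM over the wild-type group, counting error only. heyl and jag2b are the 2 members with more than 1 row, and whether reads were lost between rows of a symbol was not tested. The floor takes no account of such a loss.

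**Figure D2:**
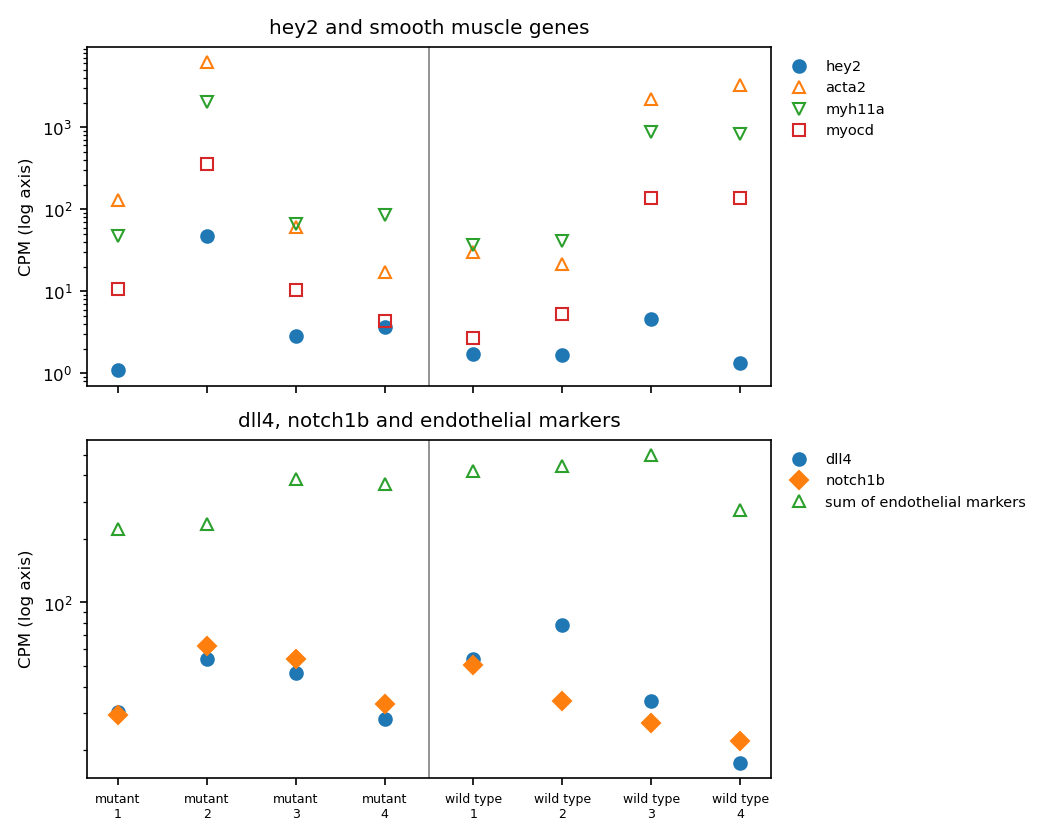
Levels by library on a log axis (CPM), with the 4 cxcr4a mutants left of the line and the 4 wild types right of it; levels are to be read across libraries for 1 gene, since CPM is not corrected for gene length. In the upper panel hey2 and the smooth muscle genes acta2, myh11a and myocd are all highest in cxcr4a mutant 2, while wild type 4 is high in the smooth muscle genes at 1.33 CPM of hey2. The lower panel draws dll4 and notch1b beside the summed endothelial markers, 222.8 to 385.3 CPM in mutants and 273.6 to 496.7 CPM in wild type. Of the mutants, library 2 is highest in both genes, at a marker sum of 234.1 CPM. The sum mixes markers that did not move together, and kdrl, part of it, was also highest of the mutants in library 2 (42.91 CPM).

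Among the ligands, jag1a likewise had its 4 mutant values above its 4 wild-type values, by a narrow margin. jag1a and jag1b are the zebrafish counterparts of the mammalian ligand gene Jag1. jag1a had 9.67, 11.4, 18.9 and 9.98 CPM in mutants 1 to 4, against 0, 9.59, 6.82 and 2.61 CPM in wild types 1 to 4. The lowest mutant (203 counts, 9.67 CPM) and the highest wild type (220 counts, 9.59 CPM) nearly met, while wild type 1 had no count at all, which allows up to 0.158 CPM. On average jag1a was at 12.5 ± 4.36 CPM over mutants, against 4.76 ± 4.27 CPM over wild types (n = 4 each, SD). The log2 fold change of 1.39 ± 1.01 (SE, 95% interval -0.87 to 3.65) did not pass (edgeR adjusted p = 0.768), and without wild type 1 it was 0.97 ± 0.50 (edgeR adjusted p = 0.525).

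jag1b varied mainly within the groups. It had 82.4, 174.2, 68.4 and 74.3 CPM in mutants 1 to 4, against 125.4, 74.9, 128.7 and 50.8 CPM in wild types 1 to 4. The ranges overlapped, with cxcr4a mutant 2 highest and wild type 4 lowest. Mutants over wild type, the log2 fold change was 0.07 ± 0.39 (SE, 95% interval -0.80 to 0.95; edgeR adjusted p = 0.982), and its direction turned without cxcr4a mutant 2, wild type 2 or wild type 4.

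The share of jag1b in the counts of both jag1 genes averaged 87.5% ± 6.57 over mutants, against 94.7% ± 4.65 over wild types (n = 4 each, SD). It was 89.5, 93.8, 78.3 and 88.2% in mutants 1 to 4, against 100, 88.7, 94.97 and 95.11% in wild types 1 to 4, so the groups overlapped. The difference of -7.23 percentage points had an exact permutation p of 0.0857, 2-sided, where the smallest possible is 0.0286, and 0.257 after adjustment over the 3 shares compared. Shares were taken on counts without correction for gene length, and serve to compare genotypes only.

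dll4, a Delta ligand gene best known from arterial endothelium, did not separate the groups. It had 30.4, 53.9, 46.6 and 28.2 CPM in mutants 1 to 4, against 54.1, 78.1, 34.2 and 17.4 CPM in wild types 1 to 4. Wild type held both the highest and the lowest value. Its log2 fold change was -0.21 ± 0.43 (SE, 95% interval -1.17 to 0.75; edgeR adjusted p = 0.939), and 0.16 without wild type 2.

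Endothelial markers were counted beside dll4, with sums that overlapped between the groups. Of 20 matched markers, 18 were tested, and plvapb (2 rows) was at 0 in all libraries. Of the 18, 14 had a log2 fold change below 0, as had 8205 of all 16631 symbols tested. They summed to 222.8, 234.1, 385.3 and 361.8 CPM in mutants 1 to 4, against 417.6, 443.9, 496.7 and 273.6 CPM in wild types 1 to 4. dll4 and the marker sum were both lowest among wild types in wild type 4, but in mutants dll4 was highest in library 2, where the sum was near its lowest. The markers within the sum did not move together. In wild type 4, flt4 (133.1 CPM) and aqp1a.1 (61.5 CPM) were at their highest of the 8 libraries. There kdrl (8.41 CPM) and cdh5 (2.61 CPM) were at their lowest. Of the mutants, library 2 was highest in kdrl, as in dll4. kdrl was at 24.96, 42.91, 32.78 and 30.89 CPM in mutants 1 to 4, against 62.21, 42.0, 31.78 and 8.41 CPM in wild types 1 to 4. Library 2 was the lowest mutant in flt4 (22.2 CPM), tek (16.59 CPM) and cdh5 (9.916 CPM). Mutants lay below every wild type for 469 of all 16631 symbols tested. Of the endothelial markers, the groups of 1 did not overlap. This was flt4, a Vegf receptor gene known from lymphatic and venous endothelium, which was at 38.0, 22.2, 39.6 and 30.5 CPM in mutants, against 51.6, 119.5, 94.8 and 133.1 CPM in wild type (log2 fold change -1.61, edgeR adjusted p = 0.145). DESeq2, which called 2.2% of symbols, called flt4 lower (adjusted p = 0.00123). tek, also of the list, averaged 31.5 CPM over mutants and 54.4 CPM over wild types (log2 fold change -0.79 ± 0.40, SE; edgeR adjusted p = 0.634). Its groups overlapped. kdr, another Vegf receptor gene and one of the 4 tested markers above 0, went the other way (log2 fold change 1.45, edgeR unadjusted p = 0.0329, adjusted p = 0.527). The part of endothelial content in the dll4 values was not tested.

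jag2b, a zebrafish counterpart of mammalian Jag2, was at the edge of detection. Over its 2 rows it had 5, 6, 2 and 10 counts in mutants 1 to 4, against 4, 12, 30 and 0 counts in wild types 1 to 4. It did not pass the filter on low counts and was not tested with edgeR. DESeq2, run without that filter, gave a log2 fold change of -0.68 (adjusted p = 0.939). Whether reads were lost between the 2 rows of jag2b was not tested.

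**Figure D3:**
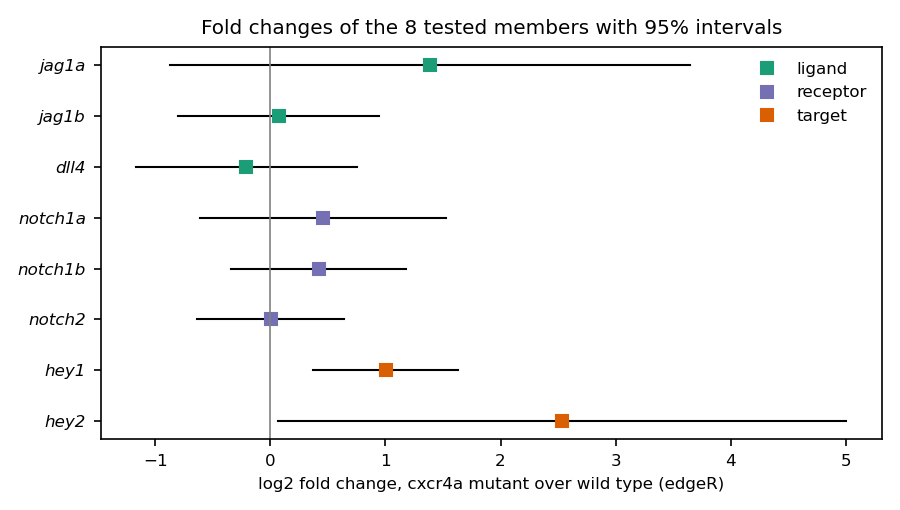
Log2 fold changes of the 8 tested members, cxcr4a mutant over wild type, with 95% intervals from edgeR; squares are coloured by role. The intervals of hey1 (0.37 to 1.63) and hey2 (0.07 to 5.01) lie above 0 before adjustment, and the intervals of the 3 ligands and 3 receptors include 0.

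None of the receptor genes separated the genotypes. notch2 had 223.0, 189.4, 197.0 and 354.0 CPM in mutants 1 to 4, against 206.3, 329.5, 253.0 and 173.6 CPM in wild types 1 to 4. Each group held 1 library well above its others, cxcr4a mutant 4 and wild type 2. Its means were 240.8 ± 76.8 CPM for mutants and 240.6 ± 67.6 CPM for wild types (n = 4 each, SD). Its log2 fold change was 0.0015 ± 0.28 (SE; edgeR adjusted p = 0.999), with a 95% interval of -0.64 to 0.64.

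notch1a and notch1b, the 2 zebrafish counterparts of mammalian Notch1, were on average somewhat higher in mutants without passing. notch1b, known in zebrafish from endocardium and arterial endothelium, had 29.3, 62.4, 54.2 and 33.3 CPM in mutants 1 to 4, against 50.9, 34.2, 26.8 and 22.1 CPM in wild types 1 to 4. Mutants 2 and 3 were above every wild type, and mutants 1 and 4 lay within the wild-type range. With both genotypes overlapping, the log2 fold change was 0.42 ± 0.34 (SE, 95% interval -0.34 to 1.18; edgeR adjusted p = 0.790).

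notch1a had 9.95, 11.4, 27.2 and 38.4 CPM in mutants 1 to 4, against 17.2, 10.9, 24.1 and 11.03 CPM in wild types 1 to 4. Its mutant libraries fell into a low and a high pair, and the high pair, mutants 3 and 4, was above all wild types. Its log2 fold change was 0.46 ± 0.48 (SE, 95% interval -0.61 to 1.53; edgeR adjusted p = 0.851), and 0.03 without cxcr4a mutant 4.

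The balance between both notch1 genes varied between libraries of the same genotype. Of their counts, the share of notch1b was 74.7, 84.6, 66.6 and 46.5% in mutants 1 to 4, against 74.7, 75.8, 52.7 and 66.7% in wild types 1 to 4. This averaged 68.1% ± 16.2 over mutants, against 67.5% ± 10.6 over wild types (n = 4 each, SD; exact permutation p = 0.971, 2-sided). For the hey genes, the share of hey2 was 3.81, 68.2, 7.17 and 12.3% in mutants 1 to 4, against 8.85, 15.08, 24.3 and 8.48% in wild types 1 to 4. With all libraries it differed by 8.70 percentage points (exact permutation p = 0.914, 2-sided), and without cxcr4a mutant 2 by -6.41.

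**Figure D4:**
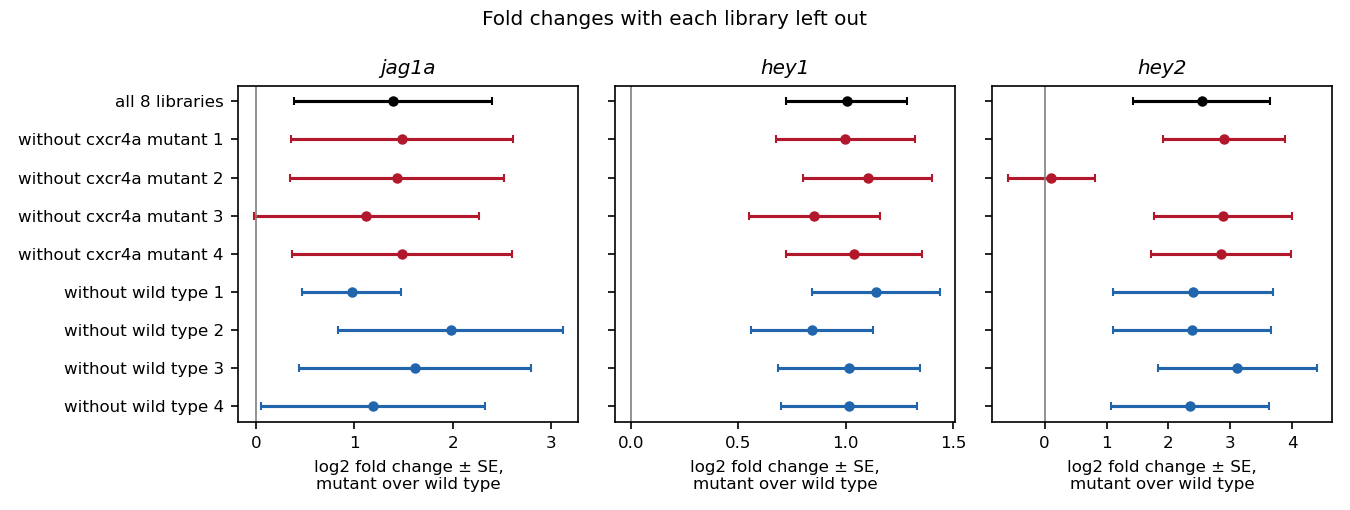
Log2 fold changes, cxcr4a mutant over wild type, of the 3 members with the largest changes, with all 8 libraries (black), without each mutant (red) and without each wild type (blue); lines are SEs and each panel has its own axis. hey1 stays between 0.84 and 1.14, hey2 drops to 0.11 without cxcr4a mutant 2, and jag1a runs between 0.97 and 1.98.

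The members differed in how steady they were across libraries. The root mean square deviation of log2 CPM from its mean over the 8 libraries was 0.35 for notch2, 0.50 for notch1b, 0.55 for jag1b and 0.59 for hey1. It was 0.63 for dll4 and 0.69 for notch1a, against a median of 0.60 over all symbols tested. hey2 and jag1a stood far above that, at 1.59 and 2.33, through cxcr4a mutant 2 and wild type 1.

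The gene whose profile over the 8 libraries was most like that of a member was taken as the one with the smallest root mean square difference in centred log2 CPM, as a description without a test. For notch2 the nearest symbols were nup153 and slc31a1, at 0.11 and 0.14. For notch1b they were cxadr and braf (0.16 and 0.17), for jag1b ttyh2 and btbd6a (0.17 and 0.21), and for dll4 ebf1a and klf3 (0.20 and 0.23). For notch1a they were slc6a6b and zfyve26 (0.23 and 0.26), and for hey1 kdm4aa and wdr11 (0.25 and 0.26). No close match was found for hey2, whose nearest were tapt1b and dapk3 at 0.89 and 0.90, or for jag1a, whose nearest were pck1 and hprt1l at 1.39 and 1.41. None of the nearest symbols of a member was another member, but hey2 and jag1a could not be picked. Candidates needed a mean log2 CPM of at least 3, which these genes did not reach. In the RefSeq table of the GRCz12tu assembly, none of the 10 members lies on the chromosome of cxcr4a.

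The rest of the pathway likewise held no gene past the edgeR threshold. Of 50 other Notch pathway genes listed, 49 matched and 37 were tested, and 0 were called. At an unadjusted p under 0.05 there was 1 higher, neurl1b, where 5.09% of all symbols were, and 1 lower, adam17b, where 3.55% were, 8.64% in both directions together. DESeq2 called 0 of them. Log2 fold changes were above 0 for 28 of the 37, with a median of 0.18, against 50.7% and 0.0097 over all symbols. The 95% interval lay within 2-fold either way for 12 of the 37. Groups overlapped for all 37, where 578 of all 16631 symbols tested had the mutants above and 469 had them below.

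Among other ligands and the remaining receptor, jag2a, a Jagged ligand gene, had 1.91, 14.2, 12.1 and 15.05 CPM in mutants 1 to 4, against 0.737, 8.32, 1.98 and 0 CPM in wild types 1 to 4. Mutants 2 to 4 were above every wild type, and mutant 1 was within their range. Its log2 fold change was 1.97 ± 1.20 (SE; edgeR adjusted p = 0.705), and it was 3.54 ± 1.24 without wild type 2. notch3, the receptor gene known from mural cells, averaged 87.6 ± 26.9 CPM over mutants, against 62.6 ± 32.9 CPM over wild types (n = 4 each, SD; log2 fold change 0.48 ± 0.39, edgeR adjusted p = 0.793). The Delta genes dlc and dld were at 0.37 ± 0.63 and -0.56 ± 1.498, and without cxcr4a mutant 2 at -0.63 and -2.72. dla and dlb did not pass the filter on low counts and were not tested.

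No gene that glycosylates or cleaves the receptors passed. pofut1, which adds fucose to Notch, had a log2 fold change of -0.79 ± 0.43 (SE; edgeR adjusted p = 0.666). The Fringe genes lfng, mfng and rfng, which extend that fucose, were at 0.32 ± 0.47, 0.20 ± 0.60 and -0.30 ± 0.35. adam17b, a protease gene, was at 64.6, 64.0, 58.3 and 64.0 CPM in mutants 1 to 4, against 59.7, 85.5, 134.3 and 117.6 CPM in wild types 1 to 4. The mutants were closely grouped and wild type 1 fell among them. Its log2 fold change was -0.66 ± 0.26 (SE; edgeR unadjusted p = 0.0293, adjusted p = 0.509). adam10a and adam10b, counterparts of the mammalian protease gene Adam10, which acts in Notch cleavage, were at 0.28 ± 0.33 and 0.15 ± 0.24, and psen2, a gamma-secretase subunit gene, at 0.46 ± 0.23.

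In the nucleus, rbpja, which encodes the DNA-binding partner of the receptor, was at 0.18 ± 0.24, and the Mastermind genes maml1 and maml3 were at 0.31 ± 0.32 and 0.57 ± 0.43. spen, a corepressor gene, was at 0.20 ± 0.55. All 6 tested genes of this role had a log2 fold change above 0.

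Among genes of ligand and receptor turnover, neurl1b, which encodes a ubiquitin ligase of the Neuralized family, was at 42.9, 28.4, 21.2 and 28.4 CPM in mutants 1 to 4, against 18.4, 19.8, 21.9 and 20.1 CPM in wild types 1 to 4. Mutant 3 fell within the wild-type range. The log2 fold change was 0.59 ± 0.26 (SE; edgeR unadjusted p = 0.0459, adjusted p = 0.563). numb and numbl, inhibitors of the receptor, were at 0.29 ± 0.27 and -0.65 ± 0.51, and itchb, a ubiquitin ligase gene, at 0.40 ± 0.37.

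Most of the other target genes did not pass the filter on low counts and were not tested. Of 11, 3 were tested: nrarpa and nrarpb, feedback inhibitors of the pathway, at -0.26 ± 0.46 and 0.14 ± 0.53, and her4.2 at 1.38 ± 1.02 (SE; edgeR adjusted p = 0.924, 0.971 and 0.771). her4.2 was highest in cxcr4a mutant 2, as hey2 was, at 4.00 CPM against 0.209 to 1.26 CPM in the other mutants, and its log2 fold change was 0.18 without that library. The remaining 8 are all her genes, and her12 and her8a among them had no counts at all. her6 and her9, each on 2 rows, were at 0.1429 CPM or less, and whether reads were lost between those rows was not tested. Among all tested targets, hey1 was the single one whose groups did not overlap, where 3.48% of all symbols had the mutants above.

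**Figure D5:**
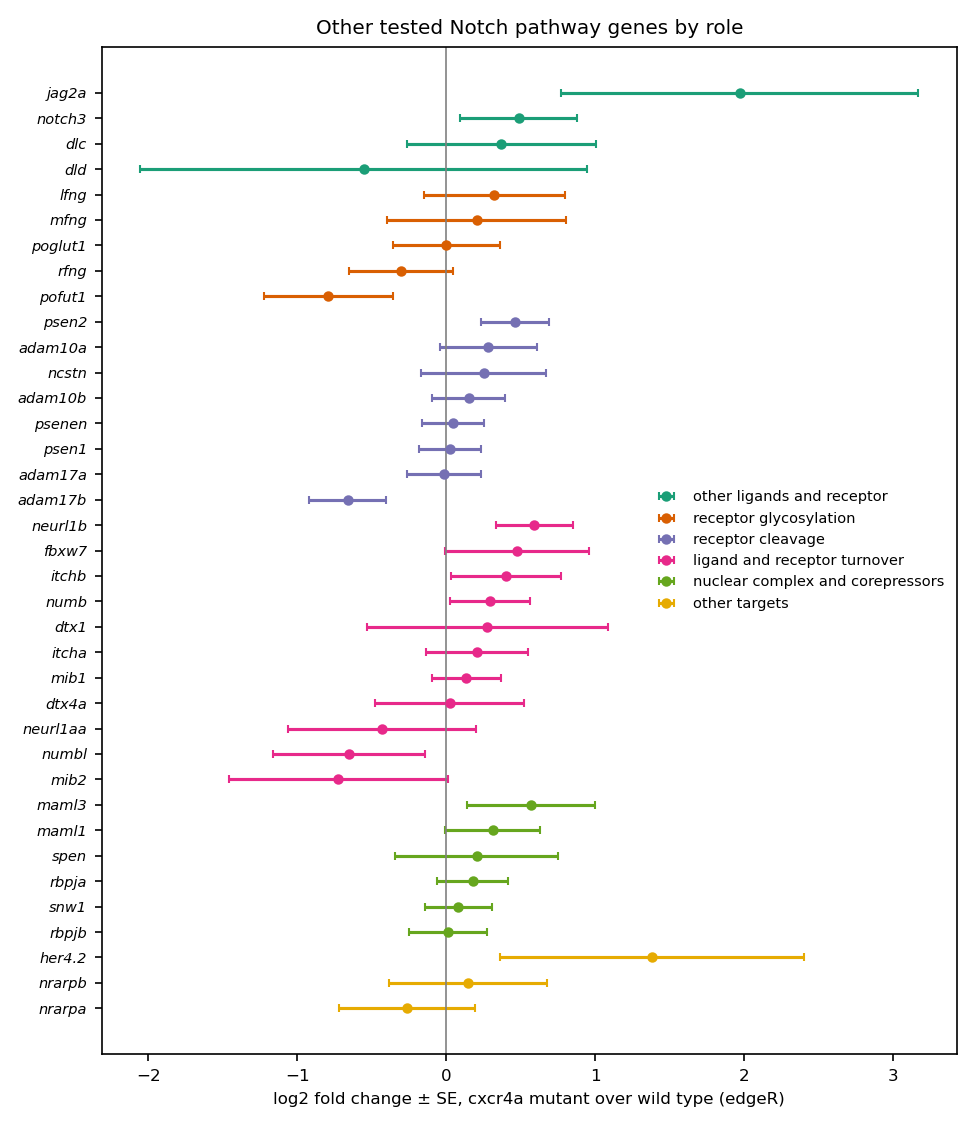
Log2 fold changes with SEs of 37 tested other Notch pathway genes, cxcr4a mutant over wild type, grouped and coloured by role. jag2a (1.97) and her4.2 (1.38) exceed 1, both with SEs above 1, and the other 35 lie between -0.8 and 0.6.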

How the data were processed

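The deposited files hold whole-number read counts per gene row, not normalized, 1 file per library. The submitters' processing notes name cutadapt 5.2, STAR 2.7.11a, HTSeq and the GRCz11 build; settings and annotation release were not given in the sources used here. Libraries were made with SMART-Seq v4 and Nextera XT, per the labels' protocols, a chemistry without strand information. Reads of overlapping antisense genes thus cannot be told apart by strand, and how they were counted was not given. Of 53709 rows, copies of a symbol (an added number) were summed; 6260 symbols, 2 members (jag2b and heyl) among them, have more than 1 row.

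The quasi-likelihood F-test of edgeR 4.0.16 (R 4.3.3) was run after filterByExpr and TMM (genotype as the only term, 8 libraries), adjusted by Benjamini-Hochberg over 16631 symbols. SEs come from the F statistic. Log2 CPM used a prior count of 2. Shares were compared by exact permutation over 70 assignments. Alternatives were DESeq2 1.42.0, limma 3.58.1 (voom), other scalings and filters, unsummed rows, a replicate block and each library left out. Named are all members, cxcr4a, up to 4 pathway genes per role by p, some leading markers of the lists and nearest symbols (mean log2 CPM of at least 3). The markers myocd, myh11a, tagln, cspg4, kcnj8, abcc9, ndufa4l2a, nppb, kdr, kdrl, cdh5, aqp1a.1, nfatc1 and nrg1 were picked after their values were seen. So were markers listed as counted or at 0. 1 gene of the pathway list is not reported here. Members and lists were chosen with earlier results of these data known. The fit was tested on simulated data. No molecular identifiers were counted, and the floors cover counting error only. The intervals come from the edgeR fit and, like its p-values, cover library-to-library spread, some of which may be technical.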

Additional observations from a re-analysis of the deposited data

Results flagged for a closer look

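A single library stood apart from the other 3 of its group, by Dixon's criterion, in 10 of 86 checks of member levels, named pathway genes, shares and marker sums. Chance gives about 1 in 20 for independent normal values, and these checks share libraries and use unlogged values. cxcr4a mutant 2 accounted for 5 of them: hey2 at 47.09 CPM (1.095 to 3.665 in the other mutants), jag1b at 174.2 CPM (68.39 to 82.44), dld at 2.842 CPM (0.04336 to 0.4538), the hey2 share at 68.24% (3.814 to 12.32), and the mural cell marker sum at 9857 CPM (795.1 to 1576). maml3 was high in library 1 of both groups, at 47.72 CPM in cxcr4a mutant 1 and 40.19 CPM in wild type 1. adam17b was low in cxcr4a mutant 3, at 58.33 CPM against 63.96 to 64.63 CPM in the other mutants. In wild type 3, hey2 was high at 4.608 CPM and psen2 low at 21.39 CPM.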

How the results depend on the processing

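The symbols called numbered 8, against 431 with DESeq2, 0 with limma voom, 0 with the replicate block, 63 with unsummed rows, and 0 to 9 with each library left out. DESeq2 called 1 member, hey1; none of the other 7 alternatives and no fit without a library called any member (0 to 0), and none of the alternatives called another pathway gene. hey1 kept its direction throughout, with adjusted p of 0.0479 to 0.467 over other settings and 0.278 to 0.567 without each library. hey2 was at 0.95 with voom and 1.01 with the replicate block, jag1a at 2.65 and 2.15, jag2a at 3.35 and 2.59, and her4.2 at 0.56 and 0.83. DESeq2 gave no p for hey2, and the stricter filter none for her4.2.

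Some changes turned sign, none of them called: notch2 was at -0.0045 with voom, -0.0012 without a filter, -0.010 with the replicate block, -0.0073 with unsummed rows and -0.0046 with the stricter filter. dlc was at -0.17 with voom and -0.13 with the replicate block, and mfng at -0.00069 and -0.12. With unsummed rows nrarpa was at 0.25, numbl at 1.58 and spen at -0.28. Without each library the ranges were -0.24 to 0.18 for notch2, -0.34 to 0.25 for jag1b, -0.48 to 0.16 for dll4, -0.014 to 0.29 for adam10b, -0.63 to 0.68 for dlc, -0.38 to 0.54 for mfng, -0.23 to 0.48 for nrarpb, -0.01 to 0.29 for rbpja and -0.14 to 0.52 for spen. The share differences ran from -9.36 to -4.18 points for jag1b, -4.90 to 7.81 for notch1b and -6.41 to 15.06 for hey2. The causes were not tested.

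Replicate numbers are shared between the groups, and with so few libraries the correlations cannot settle whether they pair the libraries. Same-numbered libraries correlated at -0.0815 to 0.0773 in their deviations, and 4 of 8 correlated best with their own number. With the block, 0 symbols were called and hey1 was at 1.02 (edgeR adjusted p = 0.467); for the shares, the block as a sign-flip test gave the same differences, -7.23, 0.602 and 8.70 points, with adjusted p of 0.750 for jag1b and 1 for the others.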

Other observations

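Summed levels of the remaining marker lists overlapped between the groups. Leukocyte markers summed to 684.5 to 4440 CPM in mutants and 1345 to 3374 CPM in wild type, erythrocyte markers to 1841 to 4988 and 491.4 to 8059 CPM, and endocardial markers to 184.7 to 288.8 and 149.8 to 323.6 CPM. Epicardial markers summed to 2284 to 4275 CPM in mutants and 1682 to 3696 CPM in wild type. The endocardial markers did not move together. Log2 fold changes were 0.44 ± 0.22 for nfatc1, 0.15 ± 0.33 for klf2a, -0.84 ± 0.61 for klf2b and 1.22 ± 0.55 for nrg1 (SE). Groups overlapped for each, and 0 of the 4 were called by edgeR.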
